A study of Drosophila melanogaster with 16 samples.

Results

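The proventriculus (PV), the valve-like organ where the fly foregut meets the midgut, was compared between flies given LpWF and axenic flies across all expressed protein-coding genes. The comparison holds 10 of the 16 libraries of the series, 5 PV libraries with LpWF and 5 axenic PV libraries, and 8935 of 13619 protein-coding genes had enough reads to be tested. The other 4684 genes were too low and are not described, except where a marker gene is named. The study made these libraries to look at immunity in the organ with and without a known bacterium. The account below is on genes with lower values with LpWF and on genes of metabolism and growth, and immune genes are left aside.

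Both groups were mated adult females of the Canton-S strain, raised germ-free. LpWF flies received the Lactiplantibacillus plantarum strain LpWF as adults, and axenic flies stayed without bacteria, so the tested condition is a single bacterial strain given late to a germ-free animal. Each library was made from total RNA of pooled, dissected PVs after depletion of ribosomal RNA. The p-values below therefore measure the spread between 5 pools in each group, and the values average over all cell types of the organ. In such bulk tissue, fewer cells of a type and less RNA per cell cannot be told apart.

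The PV is a folded tube. Esophageal and ectodermal cells (the regions PV1 to PV3) line its inner layers, and endodermal cells (PV4 to PV6) form its outer wall, all wrapped in visceral muscle. Its cells secrete the layers of the peritrophic matrix, a sleeve of chitin, mucins and glycoproteins that encloses food and bacteria on their way through the midgut. Such secretory cells need sugar for glycoproteins and chitin, fatty acids and peroxisomes for membrane and surface lipids, and ribosomes for protein export. In flies, commensal Lactobacilli are also known to influence host growth and nutrient use.

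Reads on genes ran from 23554130 to 45500807 in LpWF libraries and from 22619295 to 38486247 in axenic libraries. The kit used for these libraries is named for human, mouse and rat. Ribosomal RNA, the target of its depletion, held 38.9 and 34.5% of the reads in LpWF replicates 4 and 5. It held 43.4 and 27.9% in axenic replicates 4 and 5, and 15.3 to 22.1% in the other 6 libraries. Between those 4 libraries and the other 6, 547 of 9079 protein-coding genes were higher and 483 lower at an adjusted p under 0.05, more than differed with the bacterium. Both groups have 2 such libraries, and values within each kind of library are given beside the results. LpWF replicate 4 also stood apart on the first principal component (-48.4, against -18.7 to 26.1 in the other LpWF libraries and -6.64 to 29.1 in axenic ones). All 10 marker genes of the PV were expressed, led by the mucin Muc68D, at 37410 to 71660 CPM with LpWF and 47550 to 92240 CPM in axenic PVs. Of these markers 9 had negative log2 fold changes, with a median of -0.20, so the organ's own markers lay on the same side of 0 as the metabolic lists below. Of 14 ovary and egg markers, 13 stayed under 1 CPM in every library, and the exception, gcl, is expressed in many tissues.

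Differences were small across the genome. CPM below means counts scaled to library size after TMM normalization, which scales libraries so that most genes do not differ, and fold changes are log2 ratios of LpWF over axenic. The median log2 fold change over 8935 genes was 0.01, and 90.7% of genes lay within 0.5 of 0 in either direction. At an adjusted p under 0.05, 1 gene (0.0112%) was lower with LpWF and 0 were higher (0%) by edgeR's quasi-likelihood test. At an unadjusted p under 0.05, 395 genes (4.42%) were lower and 501 (5.61%) higher, 896 in all. DESeq2, the test the study used, was run here as an alternative. It called 35 of 9352 genes (0.374%) lower and 16 (0.171%) higher at an adjusted p under 0.05. All these counts include immune genes, and the study reported immune genes as higher with LpWF.

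A second description asked which genes did not overlap between the groups at all. In 87 genes (0.974%) the 5 LpWF libraries all lay below the 5 axenic ones, and in 85 genes (0.951%) they all lay above. The 2 sets differed in level. Of the 87, 26 had a mean from 64 to 256 CPM and 24 a higher one, whereas 4 of the 85 were from 64 to 256 CPM and 0 higher. The plot of level against difference shows this slope for all genes: the median log2 fold change was 0.06 for the 2148 genes up to 4 CPM, 0.05 for 2551 genes from 4 to 16 CPM, -0.01 for 2624 genes from 16 to 64 CPM, -0.04 for 1244 genes from 64 to 256 CPM and -0.11 for 368 genes above 256 CPM. Lists of abundant genes below are subject to that slope. For the esophagus and PV1 to PV3 genes, values within bands of level are given, and for the other lists its part was not tested.

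**Figure D1:**
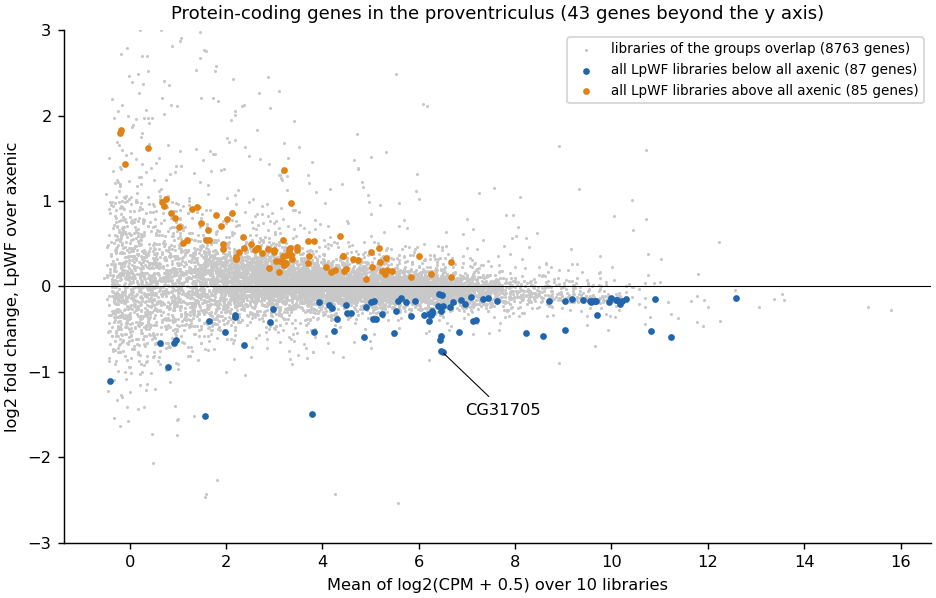
Each point is a protein-coding gene, with its mean level on the x axis and its log2 fold change, LpWF over axenic, on the y axis. The 87 genes with every LpWF library below every axenic one (blue) reach high levels, while most of the 85 with every LpWF library above (orange) are at low levels. The y axis stops at 3 in both directions, and 43 genes lie beyond it.

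CG31705 was the gene that fell by the adjusted test. It is a protein-coding gene of no named function on chromosome arm 2L from 11523021 to 11528205, minus strand, in Ensembl's BDGP6.54 annotation. Its level was 67.0, 68.5, 66.7, 68.5 and 67.5 CPM with LpWF, against 120.3, 121, 123, 95.9 and 109.8 CPM in axenic PVs. The LpWF libraries lay close together, and the 2 lowest axenic libraries were the 2 rich in ribosomal RNA. The log2 fold change was -0.75 (SE 0.07, adjusted p = 0.00244 by edgeR), with -0.84 in the 6 libraries low in ribosomal RNA and -0.60 in the 4 rich ones, where 2 libraries a group no longer passed the test (adjusted p = 0.892 by edgeR). Its 2 main transcripts held 40.5 and 56.2% of its reads with LpWF and 40.4 and 56.6% in axenic PVs on average, with shares of the first from 29.5 to 48.2% with LpWF and from 28.8 to 57.2% in axenic PVs.

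All other protein-coding genes had an adjusted p of 0.124 or more by edgeR, and those named are given as values. The lower genes named here and in the next paragraph were picked by p from genes without overlap. Agps, Pex5, Glut1, Cht9 and Cpr67B further below were picked in the same way. Their separation is thus how they were chosen and not a further result. Naprt encodes the nicotinate phosphoribosyltransferase that begins NAD synthesis from nicotinic acid, a vitamin, and lies on 2L from 4189340 to 4198071. It stood at 106, 83.3, 93.5, 86.5 and 108 CPM with LpWF, against 133, 128, 144, 139 and 144 CPM in axenic PVs, a log2 fold change of -0.53 (SE 0.08, adjusted p = 0.124 by edgeR and 4.65e-05 by DESeq2). The groups did not overlap. EbpIII, a small secreted protein of the insect chemosensory protein family, was at 1933, 1620, 1941, 1868 and 2455 CPM with LpWF, against 2821, 2796, 2869, 3036 and 3283 CPM in axenic PVs (log2 fold change -0.59, SE 0.10, adjusted p = 0.155 by edgeR and 8.89e-05 by DESeq2). It was among the most abundant of the non-overlapping genes, at a mean of 5436 coding TPM (length-scaled and summed over protein-coding genes only) with LpWF and 7671 coding TPM in axenic PVs. The takeout gene (to), a carrier-like secreted protein that marks PV1 to PV3 and is also made in fat body, was at 1253 to 1802 CPM with LpWF and 2085 to 2286 CPM in axenic PVs (log2 fold change -0.52, SE 0.10, adjusted p = 0.208 by edgeR and 0.000513 by DESeq2).

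The remaining non-overlapping genes picked by the smallest p covered several roles. Alp4, an alkaline phosphatase, had the widest ratio but a low level, 0.859 to 2.23 CPM with LpWF and 3.61 to 5.03 CPM in axenic PVs (log2 fold change -1.51, SE 0.27). The clock gene timeless (tim) was at 93.1, 58.5, 56.6, 72.0 and 70.1 CPM with LpWF, against 131, 117, 148, 104 and 95.6 CPM in axenic PVs (log2 fold change -0.77, SE 0.15, adjusted p = 0.255 by edgeR and 0.000827 by DESeq2). Its groups were separate by a narrow gap. The 9 clock genes had a median of -0.06. Of them tim was the single gene with an unadjusted p under 0.05 (11.1%, against 4.42% of all genes lower). The labels give no hour of dissection. Other genes of this set were the light-input gene qsm (-0.52), the growth-blocking peptide gene Gbp2 (-0.38), the autophagy-related TP53INP (-0.41), anchor (-0.41), CG4115 (-0.55), CG1998 (-0.58), CG8321 (-0.38), CG8229 (-0.38) and CG31821 (-0.34), all with an adjusted p of 0.151 to 0.292 by edgeR.

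**Figure D2:**
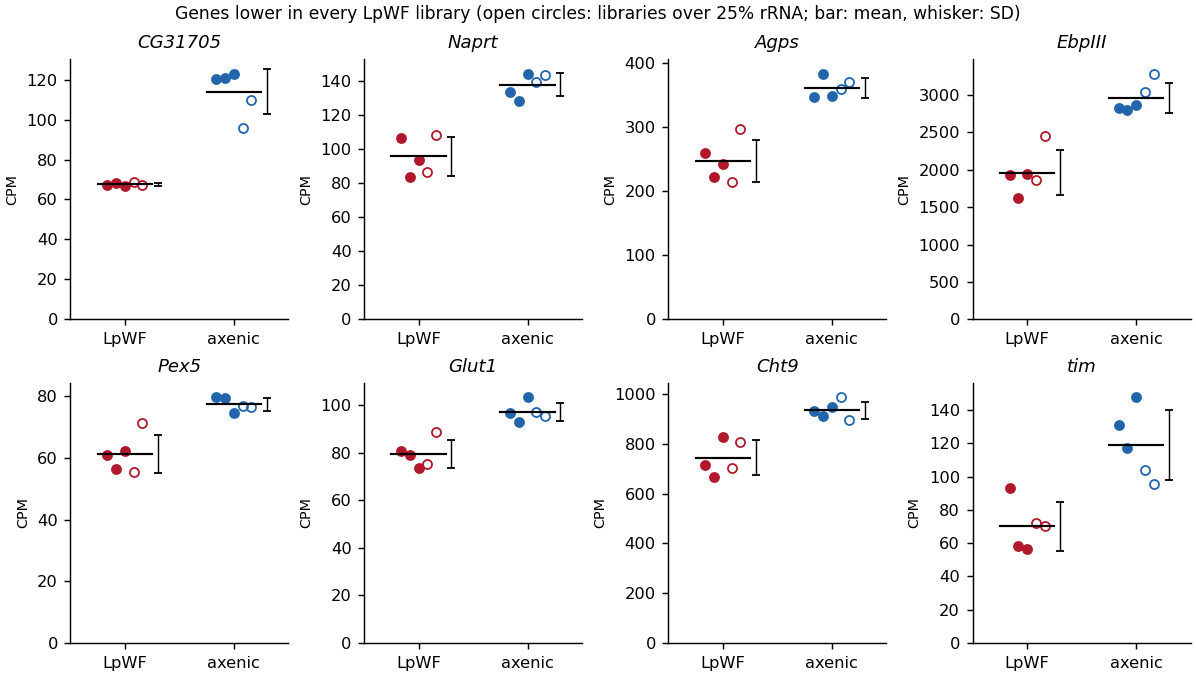
CPM of 8 genes in each library, with LpWF on the left and axenic on the right, the mean as a bar and the SD as a whisker. In each panel all 5 LpWF libraries lie below all 5 axenic ones, and libraries over 25% ribosomal RNA (open circles) fall within or near their group.

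Peroxisomes, which shorten very long fatty acids and begin ether lipid synthesis, supplied 4 of the 87 non-overlapping lower genes (16.7% of the genes tested on the list, against 0.974% of all genes). The peroxisome list was added after the values were seen, because Agps, Pex5 and PMP34 stood near the top, so its counts are not independent of that choice. Of its 25 genes 24 were tested, 19 had a negative log2 fold change, the median was -0.12, and 8 had an unadjusted p under 0.05 and were lower (33.3%, against 4.42% of all genes), with 0 higher. Agps makes the ether bond of ether lipids and lies on 2R from 14929703 to 14934861. It was at 259, 223, 242, 214 and 297 CPM with LpWF, against 347, 383, 348, 359 and 371 CPM in axenic PVs (log2 fold change -0.55, SE 0.09, adjusted p = 0.124 by edgeR and 4.65e-05 by DESeq2). The groups did not overlap. Pex5, the receptor that carries enzymes into peroxisomes, was at 61.1, 56.4, 62.3, 55.6 and 71.3 CPM with LpWF, against 79.7, 79.6, 74.5, 76.9 and 76.7 CPM in axenic PVs (log2 fold change -0.34, SE 0.07).

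PMP34, a peroxisomal membrane carrier, was at 43.1 to 57.8 CPM with LpWF and 58.5 to 68.03 CPM in axenic PVs. Mfe2, an enzyme of peroxisomal fatty acid oxidation, was at 169 to 203 CPM with LpWF and 205 to 217 CPM in axenic PVs. The import genes Pex6, Pex10, Pex11ab and Pex19 also had negative log2 fold changes at an unadjusted p under 0.05 (-0.18 to -0.26). Gnpat, the enzyme that acts before Agps, had a log2 fold change of -0.13 with overlapping groups, and catalase (Cat) one of -0.08. The acyl-CoA oxidase Acox57D-p had a value of 0.09. The peroxisome median was -0.13 in the libraries low in ribosomal RNA and -0.09 in the rich ones. By library, the list's median deviation from the axenic mean ran from -0.30 to 0.01 with LpWF and from -0.07 to 0.03 in axenic PVs. The groups overlapped through LpWF replicate 5.

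Fatty acid synthesis and elongation showed the same sign. Of 16 genes tested, 13 had negative log2 fold changes with a median of -0.12, and 3 had an unadjusted p under 0.05 (18.8%, against 4.42% of all genes), all lower and all enzymes of chain elongation. The library medians overlapped, at -0.38 to 0.02 with LpWF and -0.07 to 0.05 in axenic PVs. Hacd1, which removes water in the elongation cycle, was at 184, 154, 166, 167 and 222 CPM with LpWF, against 236, 251, 216, 250.4 and 246 CPM in axenic PVs (log2 fold change -0.43, SE 0.10, adjusted p = 0.292 by edgeR and 0.0169 by DESeq2), and LpWF replicate 5 overlapped the axenic group. The elongases Baldspot and bond, the second a marker of the esophagus, had log2 fold changes of -0.35 (SE 0.12) and -0.31 (SE 0.14). FASN1, the fatty acid synthase and the most abundant member, was at 1584 CPM with LpWF and 1743 CPM in axenic PVs on average (log2 fold change -0.14, adjusted p = 0.687 by edgeR).

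For mitochondrial fatty acid oxidation, 15 of 18 genes were negative with a median of -0.08, and the library medians overlapped between groups. Mtpbeta, a subunit of the trifunctional enzyme, was at 91.3 to 107 CPM with LpWF and 108 to 113 CPM in axenic PVs, without overlap. Triglyceride storage and lipolysis had a median of -0.03 over 13 genes. Lipoproteins and lipid carriers had 9 of 14 negative and a median of -0.21. Among them the cholesterol transporter Npc1a did not overlap between groups, at 107 to 125 CPM with LpWF and 127 to 145 CPM in axenic PVs (log2 fold change -0.21, SE 0.07). Glycerol kinase Gk1 and the lipid droplet gene Fitm, outside these lists and named after their values were seen, were also among the 87 (log2 fold changes of -0.28 each).

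Most genes of sugar metabolism also had values below 0. In glycolysis, which splits glucose to pyruvate, 12 of 13 genes had negative log2 fold changes with a median of -0.12, and 4 had an unadjusted p under 0.05, all lower (30.8%, against 4.42% of all genes). By library, the list's median deviation from the axenic mean ran from -0.25 to -0.05 with LpWF and from -0.06 to 0.09 in axenic PVs, with overlap. Phosphofructokinase (Pfk), its main control step, was at 84.6 to 107.5 CPM with LpWF and 105 to 112 CPM in axenic PVs (log2 fold change -0.19, SE 0.07). Pyruvate kinase (PyK), its last step, was at 524.5, 521, 484, 439 and 490.1 CPM with LpWF, against 555, 613, 546, 535 and 527 CPM in axenic PVs (log2 fold change -0.18, SE 0.07, adjusted p = 0.495 by edgeR). The groups of PyK did not overlap, but nearly met. Tpi and Gapdh1 each had a log2 fold change of -0.21, and Eno had one of -0.09.

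In the pentose phosphate pathway, which makes NADPH and ribose, 8 of 9 genes were negative with a median of -0.18, and Pgd, Rpi, Taldo and Pgls had an unadjusted p under 0.05 (44.4%, against 4.42% of all genes). Its library medians ran from -0.24 to 0.01 with LpWF and from -0.06 to 0.06 in axenic PVs, with overlap. Pgd was at 279 to 358 CPM with LpWF and 329 to 371 CPM in axenic PVs (log2 fold change -0.25, SE 0.08). Of 10 genes for gluconeogenesis, trehalose and glycogen, 9 were negative with a median of -0.19, and the library medians overlapped between groups. Glycogen synthase (Glys) had the smallest p (log2 fold change -0.26, SE 0.09), and Treh, which splits trehalose, was the exception at 0.18 (SE 0.10). Of 15 sugar, amino acid and acid transporters, 12 were negative. Their library medians did not overlap, at -0.25 to -0.09 with LpWF and -0.05 to 0.10 in axenic PVs. The glucose transporter Glut1 was at 80.7, 79.0, 73.7, 75.3 and 88.5 CPM with LpWF, against 96.4, 92.9, 103, 97.0 and 95.6 CPM in axenic PVs (log2 fold change -0.29, SE 0.06, adjusted p = 0.292 by edgeR and 0.0169 by DESeq2), without overlap. The amino acid transporters NAAT1 and JhI-21 and the trehalose transporter Tret1-1 had log2 fold changes of -0.28, -0.25 and -0.29.

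Amino acid and one-carbon metabolism had 18 of 23 genes negative and a median of -0.12. Of its genes, 3 were lower (13.04%, against 4.42% of all genes) and 1 higher (4.35%, against 5.61%) at an unadjusted p under 0.05. These were v, slgA and Oat, which break down tryptophan, proline and ornithine and were lower (-0.82, -0.27 and -0.45), and Mccc1, a subunit of the enzyme for leucine breakdown, which was higher (0.17). Alcohol and aldehyde metabolism had 7 of 9 negative with a median of -0.14, led in abundance by Adh (log2 fold change -0.21, SE 0.14). Library medians of this list and of amino acid metabolism overlapped between groups. The citric acid cycle did not share this sign: 9 of 20 genes were negative with a median of 0.00. PCB, pyruvate carboxylase, was the single member with an unadjusted p under 0.05 (-0.25, SE 0.10). That is 5.0% of the list, against 4.42% of all genes lower. Nuclear genes for oxidative phosphorylation had 54 of 71 negative but a median of -0.04, with -0.13 in the libraries low in ribosomal RNA and 0.11 in the rich ones, so their sign differed with the libraries.

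**Figure D3:**
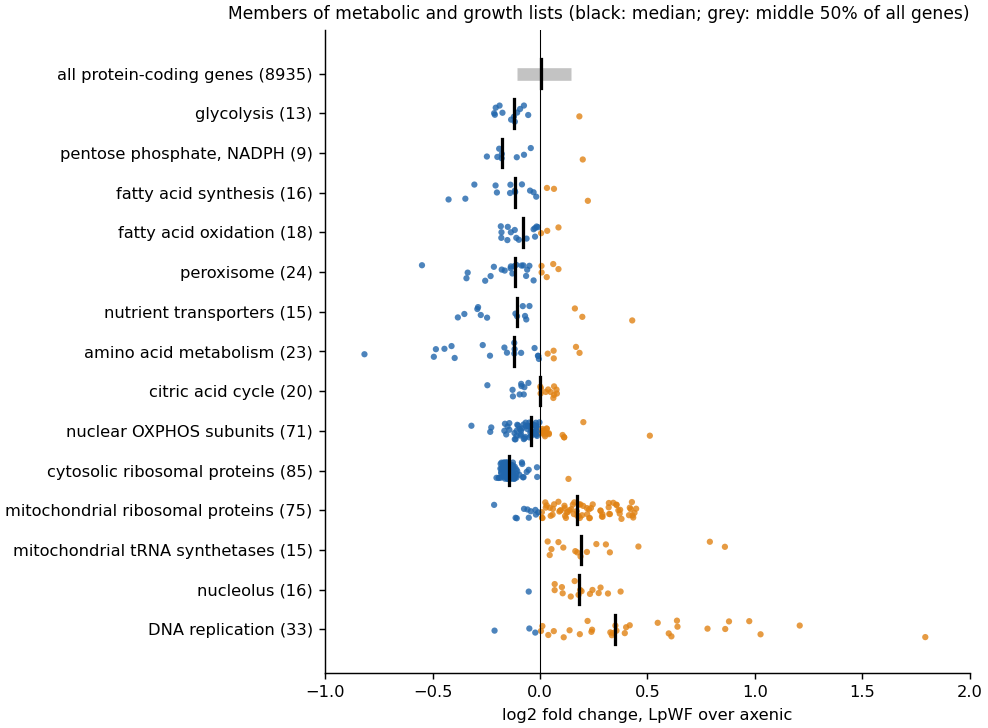
Each point is a gene, placed by its log2 fold change, LpWF over axenic, in rows by list, with the number tested in brackets. Blue points lie below 0 and orange points above. The black tick is the median, and the grey bar holds the middle 50% of all genes. Lists of sugar, lipid and peroxisome genes and of cytosolic ribosomal proteins have medians below 0, and mitochondrial translation, nucleolus and DNA replication above 0.

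Chitin and matrix genes had members on both sides of 0, most of them below. Of 20 peritrophic matrix, mucin and chitin genes tested, 15 were negative with a median of -0.14. Among the 20, 4 were lower (20%, against 4.42% of all genes) and 3 higher (15%, against 5.61%) at an unadjusted p under 0.05. The list's library medians did not overlap, at -0.26 to -0.08 with LpWF and -0.07 to 0.07 in axenic PVs. Cht9, a chitinase, was at 716, 666, 829, 703 and 807.5 CPM with LpWF, against 931, 912, 947, 987 and 895 CPM in axenic PVs (log2 fold change -0.33, SE 0.08, adjusted p = 0.292 by edgeR and 0.0156 by DESeq2), without overlap. Gfat1, which opens the hexosamine pathway that feeds chitin and glycoprotein synthesis, had a log2 fold change of -0.29 (SE 0.09), Cht8 one of -0.24 and Gasp one of -0.39. Muc68D, the most abundant mucin, averaged 53600 ± 12750 CPM with LpWF and 64740 ± 18640 CPM in axenic PVs (SD, n = 5 each), and the groups overlapped (log2 fold change -0.27, SE 0.21). In the other direction stood 3 mucin genes with an unadjusted p under 0.05, Muc55B (2.11, SE 0.64), Muc18B (2.72, SE 0.96) and Muc68E (0.83, SE 0.34). Muc68E was at 147 to 446 CPM with LpWF and 104 to 269 CPM in axenic PVs, and the others averaged under 5 CPM. Of 94 cuticle protein genes 8 were tested, and Cpr67B was at 251 to 355 CPM with LpWF and 382 to 590 CPM in axenic PVs (log2 fold change -0.59, SE 0.13), without overlap.

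The cytosolic and mitochondrial ribosomes stood on opposite sides of 0. Of 85 cytosolic ribosomal protein genes tested, 84 were negative, with a median of -0.14. At an unadjusted p under 0.05, 28 were lower (32.9%, against 4.42% of all genes) and 0 higher. The family supplied 15 of the 87 non-overlapping lower genes (17.6% of its genes tested, against 0.974% of all genes). The shift was small for each gene. RpL14 was at 699, 718, 707, 743 and 723 CPM with LpWF, against 828, 845, 857, 769 and 770.4 CPM in axenic PVs (log2 fold change -0.18, SE 0.06, adjusted p = 0.473 by edgeR), and RpL3, the most abundant, was at 1704 to 1889 CPM with LpWF and 1917 to 2105 CPM in axenic PVs (-0.15, SE 0.06). The translation factors eEF1alpha1, eIF4A and eIF1A, named after their values were seen, were non-overlapping and lower as well. The family's median was -0.22 in the libraries low in ribosomal RNA and -0.03 in the rich ones. Its genes are abundant, where all genes tend below 0.

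Of 75 mitochondrial ribosomal protein genes, all tested, 65 were positive and 10 negative, with a median of 0.17, and 15 had an unadjusted p under 0.05, all higher (20%, against 5.61% of all genes). In 7 of the 75 genes (9.33%, against 0.951% of all genes) every LpWF library lay above every axenic one. mRpL3 was at 9.21, 9.43, 8.83, 7.69 and 8.28 CPM with LpWF, against 5.26, 7.25, 6.77, 6.21 and 6.83 CPM in axenic PVs (log2 fold change 0.43, SE 0.11, adjusted p = 0.351 by edgeR), and mRpS11 and mRpL12 had log2 fold changes of 0.41 and 0.44. The 2 most abundant members, mRpS5 and mRpL28, had values of -0.04 and -0.02. The median was 0.15 in the libraries low in ribosomal RNA and 0.25 in the rich ones. The mitochondrially encoded proteins, which this ribosome makes, had 10 of 12 negative and a median of -0.17, with library medians from -0.75 to 0.44 with LpWF and from -0.46 to 0.48 in axenic PVs.

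Enzymes that load transfer RNAs in mitochondria, a list separated from the other tRNA synthetases after the values were seen, were all 15 positive with a median of 0.19. MetRS-m, for methionine, was at 5.497, 5.81, 4.97, 5.39 and 4.33 CPM with LpWF, against 1.72, 3.04, 2.79, 3.41 and 3.38 CPM in axenic PVs (log2 fold change 0.86, SE 0.19, adjusted p = 0.292 by edgeR and 0.0156 by DESeq2). ValRS-m had a log2 fold change of 0.79 (SE 0.21), also without overlap. Import genes included Tom70, a receptor, at 13.8 to 15.3 CPM with LpWF and 9.69 to 12.97 CPM in axenic PVs, and Tom40, the pore, at 26.5 to 31.9 CPM with LpWF and 20.03 to 25.5 CPM in axenic PVs. Of 13 import and chaperone genes 3 were negative, with a median of 0.12. CG11267, the gene with the smallest p among those higher, encodes a protein of the small mitochondrial chaperonin family. It was at 14.8, 16.3, 18.4, 16.1 and 16.5 CPM with LpWF, against 11.3, 11.3, 10.9, 12.7 and 10.5 CPM in axenic PVs (log2 fold change 0.53, SE 0.09, adjusted p = 0.124 by edgeR and 0.000513 by DESeq2). Its partner Hsp60A had a log2 fold change of 0.30 (SE 0.15) with overlapping groups. The mitochondrial peroxidase Prx3 (0.36) and the mitochondrial RNA-binding gene bsf (0.35) did not overlap between groups either.

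Of 16 nucleolus and ribosome assembly genes, 15 were positive with a median of 0.18. Nopp140 (0.23) and CG11583 (0.32) were the 2 with an unadjusted p under 0.05 (12.5%, against 5.61% of all genes higher). Rudimentary (r), the enzyme that opens pyrimidine synthesis, was at 37.4, 41.6, 39.5, 48.4 and 41.2 CPM with LpWF, against 25.3, 32.0, 28.4, 33.6 and 32.5 CPM in axenic PVs (log2 fold change 0.45, SE 0.10, adjusted p = 0.292 by edgeR and 0.0169 by DESeq2), and r-l, which ends the same pathway, had a value of 0.56 (SE 0.18). The purine and pyrimidine list as a whole had a median of 0.02. The remaining non-overlapping higher genes named by p were CG7692 (0.36), Cndp2, a peptidase (0.28), CG6908 (0.98), the channel gene CngB (0.84) and CG15210 (0.53).

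DNA replication, a list added after the values were seen, had 33 genes tested, of which 30 were positive with a median of 0.35. At an unadjusted p under 0.05, 8 were higher (24.2%, against 5.61% of all genes) and 0 lower. Top2, a topoisomerase, was at 39.5 to 47.1 CPM with LpWF and 29.5 to 37.7 CPM in axenic PVs (log2 fold change 0.33, SE 0.08), and RfC3, of the clamp loader, was at 1.25 to 2.09 CPM with LpWF and 0.581 to 1.01 CPM in axenic PVs (1.03, SE 0.27). The helicase genes Mcm2 and Mcm3 and the ribonucleotide reductase gene RnrL had log2 fold changes of 0.88, 0.97 and 0.86 with overlapping groups, at group means of 2.46 CPM or less. Low genes as a whole were slightly positive, by 0.06 up to 4 CPM.

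**Figure D4:**
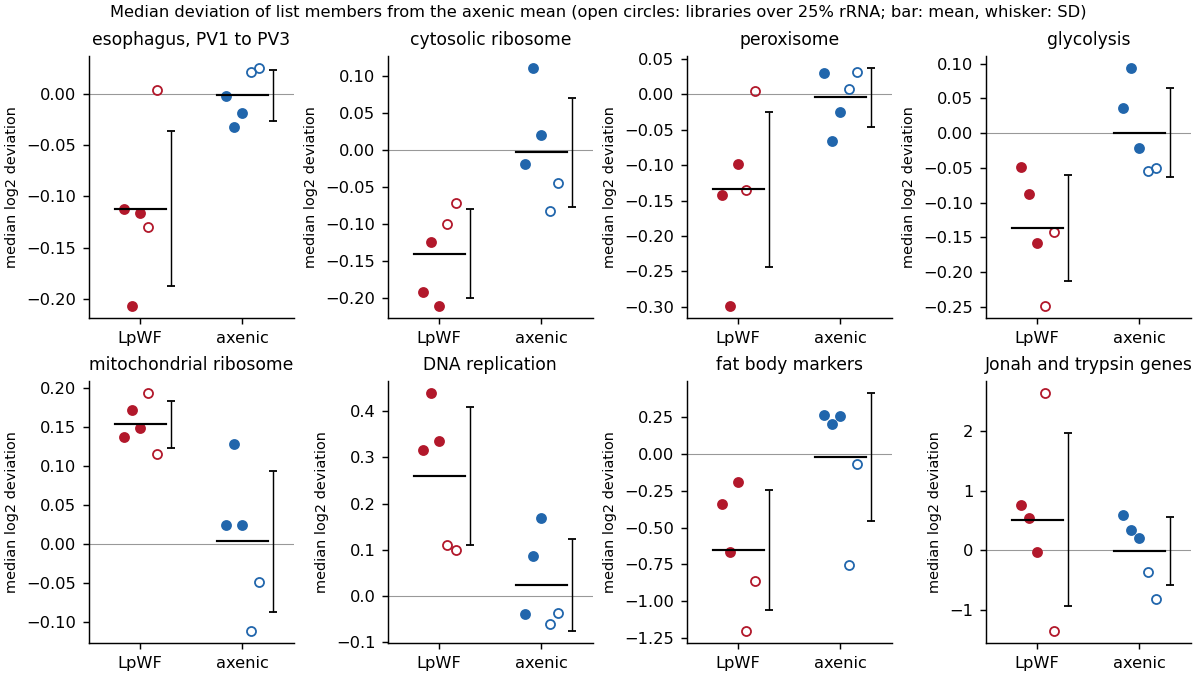
For each library, the median over the list's members of log2(CPM + 0.5) minus the axenic mean, with LpWF on the left, axenic on the right, the mean as a bar and the SD as a whisker. Cytosolic ribosome medians run from -0.21 to -0.07 with LpWF and from -0.08 to 0.11 in axenic PVs, and the mitochondrial ribosome from 0.12 to 0.19 with LpWF and from -0.11 to 0.13 in axenic PVs. LpWF replicate 4 is far above the rest for the Jonah and trypsin genes.

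To ask where in the organ the lower genes are normally expressed, the study's own single-cell gene lists for the esophagus, PV1 to PV5, PV5.5, PV6-1 and visceral muscle were used. Lists for the rest of PV6, in the posterior outer wall, were not used here. They come from dissociated cells and not from these libraries, were brought in after the values were seen, and share many genes with each other. Of 776 genes on the lists for esophagus, PV1, PV2 or PV3 that were tested, 621 (80.0%) were negative, with a median of -0.11, against 48.3% negative and a median of 0.01 over all genes. PV3 had a median of -0.20 over 94 genes, the esophagus -0.14 over 287, PV2 -0.14 over 431 and PV1 -0.12 over 484. Genes of the endodermal regions with a list were nearer to 0, with medians of -0.02 for PV4, -0.03 for PV5.5 and -0.03 for PV6-1, while PV5 had -0.17 over 41 genes. The visceral muscle list had a median of -0.07 over 285 genes.

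Of the 87 non-overlapping lower genes, 40 (46.0%) were on the esophagus and PV1 to PV3 lists, which hold 8.68% of the genes tested. These 40 are 5.15% of the lists' genes, against 0.974% for all genes. Of the 85 higher genes 0 were. The lists include 32 cytosolic ribosomal protein genes, and without them 744 genes had a median of -0.11 and 32 of the 87. Within each band of level the listed genes had lower medians than the others. They were -0.11 and 0.06 from 4 to 16 CPM, -0.09 and 0.00 from 16 to 64 CPM, and -0.12 and -0.02 from 64 to 256 CPM, with the listed genes given first. Above 256 CPM they were -0.13 and -0.09. By library, the median over the 776 genes was -0.11, -0.21, -0.12, -0.13 and 0.00 with LpWF and -0.03 to 0.03 in axenic PVs, so LpWF replicate 5 lay within the axenic range. Of the genes described above, EbpIII and Hacd1 were on all 4 lists, takeout on those for PV1 to PV3, Pex5 and Mfe2 on those for esophagus, PV1 and PV2, Agps on those for PV1 and PV3, CG31705 and Naprt on that for PV2 and bond on that for the esophagus. Glut1 and tim were on none of them.

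Of 10 fat body markers, 8 were tested, and all 8 were negative with a median of -0.76. Their summed level was 2983 to 5034 CPM with LpWF and 4500 to 6909 CPM in axenic PVs. Lsp2, a storage protein, and Fbp1, a fat body receptor, stayed under 0.5 CPM in every library, and takeout and Yp3 are also on the PV lists. The yolk protein gene Yp1 was at 924, 661, 932, 365 and 470 CPM with LpWF, against 1269, 1237, 1249, 615 and 1060 CPM in axenic PVs (log2 fold change -0.70, SE 0.30, adjusted p = 0.495 by edgeR). The libraries rich in ribosomal RNA were the lowest of their groups, and axenic replicate 4 overlapped the LpWF range. Yp2 (-0.89, SE 0.30), the lipid transfer particle gene Apoltp (-0.86, SE 0.28) and the clotting gene fon (-0.82, SE 0.34) followed the same order. The part of attached fat body in the lipid carrier values was not tested. Among other cell types, all 7 hemocyte markers were negative with a median of -0.15, all 5 trachea markers with -0.13 and 7 of 9 muscle markers with -0.10. The most abundant hemocyte marker, vir-1 (363 to 618 CPM), is strongly expressed in esophageal cells by the study's account. NimC1, eater and Sr-CI stayed at 2.73 CPM or less. Of 6 nephrocyte markers 5 were positive with a median of 0.25, which was -0.01 in the libraries rich in ribosomal RNA. The 6 neuron markers had a median of 0.11, and of -0.36 without LpWF replicate 4.

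The digestive enzymes were the widest positive differences and rested on a single library. All 19 Jonah and trypsin protease genes tested had positive log2 fold changes with a median of 1.66, which is 0.17 without LpWF replicate 4, 0.08 in the libraries low in ribosomal RNA and 3.48 in the rich ones. The trypsin gene alphaTry was at 2729, 2929, 1734, 6544 and 356 CPM with LpWF, against 2359, 2067, 2482, 742 and 610.0 CPM in axenic PVs (log2 fold change 0.79, SE 0.72, adjusted p = 0.768 by edgeR), so LpWF libraries held both the highest and the lowest value. Jon99Fi was at 295.5 CPM in LpWF replicate 4 and at 1.11 CPM or less in each of the other 9 libraries. Starch and sugar digestion had a median of 0.84, and 0.05 in the libraries low in ribosomal RNA, while the amylases Amy-p and Amy-d, its most abundant members, had values of -0.15 each. More widely, 219 genes had a log2 fold change above 1, and 163 of these were highest in LpWF replicate 4. Without that library 92 of the 219 stayed above 1. By contrast 40 genes lay below -1, and 33 of these were beyond 1 in either direction without it. The 10 enterocyte and digestive markers, which include several of these enzymes, summed to 19387 to 44178 CPM with LpWF and 19296 to 39693 CPM in axenic PVs, with LpWF replicate 4 at the top. The study also places such genes in the posterior PV itself. It names Amy-p for PV6-2, and alphaTry, betaTry, Jon65Aiii, Jon65Aiv and Jon99Cii for PV6-3, with the mucins Muc68E and Muc55B. The part of PV6 cells or of attached midgut in these values was not tested.

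Detoxification and metal genes had members on both sides of 0. Cytochrome P450 genes had a median of 0.05 over 61 genes. With an unadjusted p under 0.05, 4 were higher (6.56%, against 5.61% of all genes) and 2 lower (3.28%, against 4.42%), both near the all-gene shares. Cyp4d2 did not overlap, at 4.66 to 6.98 CPM with LpWF and 3.31 to 4.42 CPM in axenic PVs. Glutathione S-transferases had a median of 0.08 over 26 genes. UDP-glycosyltransferases had a median of 0.43 over 23 genes, 16 of them positive, and this median is 0.11 without LpWF replicate 4. Of the 23, 3 were lower (13.04%, against 4.42% of all genes) and 2 higher (8.7%, against 5.61%) at an unadjusted p under 0.05. Ugt303B1 was at 0.818 to 9.81 CPM with LpWF and 0.268 to 0.850 CPM in axenic PVs (log2 fold change 2.41, SE 0.71, adjusted p = 0.432 by edgeR and 0.0236 by DESeq2), with overlap. The metallothionein MtnD was at 7.69, 11.3, 11.8, 27.9 and 3.08 CPM with LpWF, against 5.06, 4.11, 3.78, 2.03 and 2.31 CPM in axenic PVs (log2 fold change 1.84, SE 0.53, adjusted p = 0.442 by edgeR), with overlap through LpWF replicate 5, and the more abundant MtnA had a value of -0.34 (SE 0.12). Antioxidant enzymes had a median of 0.03 over 16 genes. Of the 16, 4 were higher (25%, against 5.61% of all genes) and 1 lower (6.25%, against 4.42%) at an unadjusted p under 0.05. Prx3, Prx6a, Prx6b and Prx6c were higher, and Irc was lower (log2 fold change -0.31, SE 0.12). Proteasome genes had a median of -0.02 over 31 genes, and heat shock genes -0.19 over 16, with -0.85 and 0.52 in the libraries low and rich in ribosomal RNA.

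The list medians were set side by side for the 6 libraries low in ribosomal RNA (3 with LpWF and 3 axenic) and the 4 rich ones (2 and 2). Glycolysis (-0.14 and -0.13), peroxisome (-0.13 and -0.09), the esophagus and PV1 to PV3 genes (-0.13 and -0.08), mitochondrial ribosomal proteins (0.15 and 0.25) and mitochondrial tRNA synthetases (0.18 and 0.19) had the same sign in both. In the same order, the citric acid cycle (-0.07 and 0.08) and nuclear oxidative phosphorylation (-0.13 and 0.11) did not. By library, the medians of all these lists overlapped between the groups. So did those of cytosolic ribosomal proteins, the nucleolus and DNA replication. On a length-scaled measure without TMM, coding TPM, the median of all genes was 0.10 higher with LpWF, and relative to it the cytosolic and mitochondrial ribosomal proteins stood at -0.15 and 0.17, glycolysis at -0.13 and the peroxisome at -0.11. Before that subtraction these medians were -0.041, 0.28, -0.029 and -0.010 in the same order. Other medians were then -0.072 for gluconeogenesis, trehalose and glycogen, -0.073 for the pentose phosphate pathway, -0.014 for fatty acid synthesis, -0.021 for amino acid metabolism, 0.03 for fatty acid oxidation, 0.03 for the transporters and -0.0047 for the esophagus and PV1 to PV3 genes. The lower values of these lists are therefore in whole or in part relative to the median gene.

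**Figure D5:**
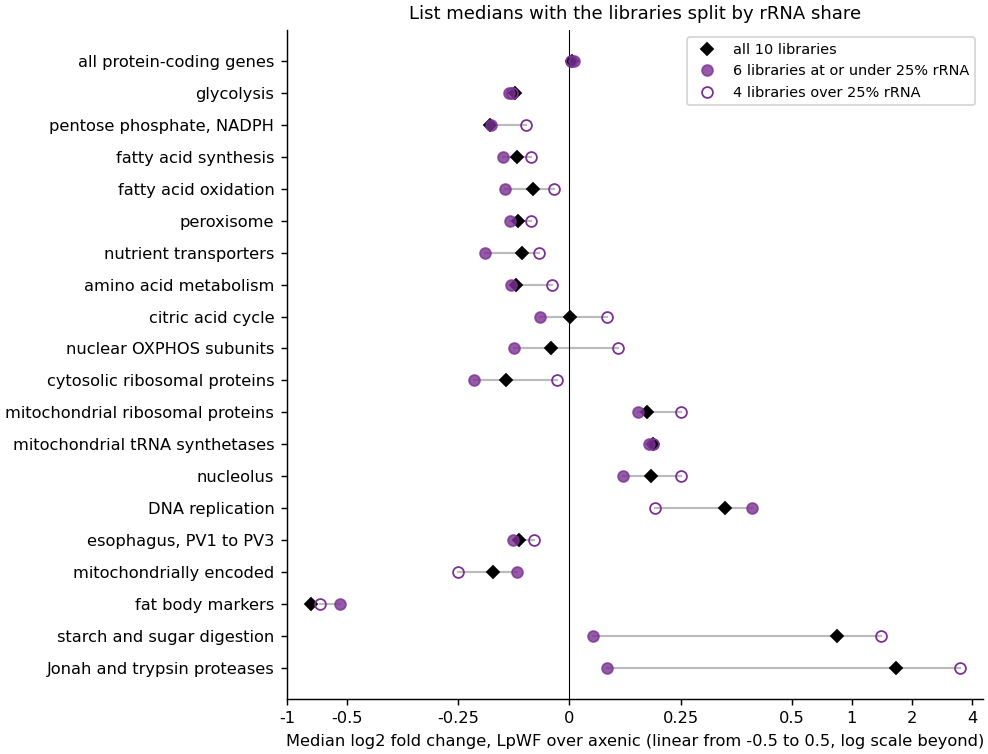
Median log2 fold change, LpWF over axenic, of each list in all 10 libraries (diamonds), in the 6 libraries at or under 25% ribosomal RNA (filled circles) and in the 4 above (open circles). The x axis is linear between -0.5 and 0.5 and logarithmic beyond. Jonah and trypsin genes differ most between the splits, at 0.08 and 3.48.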

How the data were processed

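The authors assigned reads to transcripts with Salmon on BDGP6 and deposited, per library, estimated counts, which are not normalized between libraries, TPM values, which were scaled by the authors over all transcripts, and other columns such as effective length, deposited in bases. Here both measures were added up to genes for 33704 transcripts through Ensembl release 115, where 271 transcripts, holding 0.128 to 0.257% of reads, have no gene. Counts were rounded and tested with edgeR 4.0.16 on R 4.3.3 (TMM, filterByExpr, robust quasi-likelihood F test, no covariate) over the 10 PV libraries, with Benjamini-Hochberg adjustment across the 9360 genes that passed the filter. Coding TPM is TPM rescaled over protein-coding genes. Standard errors come from the same fits.

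Reads on genes were 22619295 to 45500807 per library. Within each group, every pair of libraries differed by more than sampling noise (chi-square per gene of 87.9 or more). The fit was tested on simulated data.

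The members, gene lists and markers were chosen with earlier results of these data known. Named genes are protein-coding genes with an adjusted p under 0.05, the 20 lower and 10 higher non-overlapping genes with the smallest p outside an immune list, and from each list up to 6 members with an unadjusted p under 0.05 and the 2 most abundant. Any other gene in the text was chosen after its values were seen. List symbols without a match were Alat, ABCD and RfC1 of the metabolic lists, and a few of the single-cell lists. Near-identical copies, such as Amy-p and Amy-d, alphaTry and betaTry, Jonah genes and histones, can share reads and are uncertain as single genes. The library kit marks strand, but how strand entered counting is not given in the sources used here.

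Alternatives were DESeq2 1.42.0 and its size factors, other filters on low counts, protein-coding genes only, a replicate block, a term for libraries over 25% ribosomal RNA, those libraries or the others alone, and leaving out each library. Coding TPM, the single-cell region lists and lists for peroxisome, DNA replication and mitochondrial tRNA synthetases were added after seeing the data. Summaries used pandas 2.3.3 and numpy 2.4.6 in Python 3.11.15, and figures were drawn with matplotlib 3.10.9. Crop and salivary gland libraries were not used here, since they have no axenic group. No sequences are shown.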

Additional observations from a re-analysis of the deposited data

Results flagged for a closer look

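In 154 groups of 5 libraries, 4 held a value far from the other 4 by Dixon's test at its 95% critical value, where chance gives about 5% of groups. The CPM of CG31821 in axenic replicate 5 was 89.41, against 84.35 to 85.63 in the other axenic libraries. The clock list's median in axenic replicate 4 was 0.118, against -0.069 to -0.015. In axenic replicate 5 the muscle list's median was 0.285, against -0.105 to 0.002, and that of the trachea list was 0.274, against -0.078 to 0.002.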

How the results depend on the processing

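The 1 gene at an adjusted p under 0.05 became 51 with DESeq2, 34 with the replicate block, 14 with a term for ribosomal RNA over 25% and 0 in the 4 libraries over 25%. It was 1 to 10 when each library was left out, with 10 without LpWF replicate 5. Of these fits, DESeq2, the block and the ribosomal RNA term shared 12 genes, 9 lower and 3 higher. The 395 lower genes at an unadjusted p under 0.05 became 717 with the replicate block, 616 with the ribosomal RNA term and 164 in the 4 rich libraries, and ran from 274 to 563 when each library was left out. The 501 higher genes became 205 in the rich libraries and ran from 297 to 699 when each library was left out, with 297 without LpWF replicate 2 and 328 without axenic replicate 5. Genes without overlap numbered 750 lower and 822 higher in the 6 low libraries and 1611 and 1607 in the rich ones, since fewer libraries overlap less often, and ran from 110 to 260 lower and from 88 to 249 higher when each library was left out, most without LpWF replicate 5. The replicate block is an alternative only, because shared numbers did not pair the libraries. The numbers are those of the sample titles, and axenic libraries carry other numbers in their file names, so the block rests on the titles. Deviations of same-numbered libraries correlated at -0.0282 to 0.513, and only LpWF replicate 5 correlated best with its own number. With the block, the fat body genes Yp1, Yp2, Yp3 and fon had adjusted p-values of 0.0470, 0.0110, 0.0231 and 0.0184 by edgeR. Among the 30 genes named by p, 0 changed direction in 19 alternatives. These genes were picked because their groups did not overlap, so leaving out libraries could hardly change their direction. Of 64 lists, 21 changed the sign of their median under some alternative, in 55 of 1280 values, as the citric acid cycle, proteasome and neuron lists did.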
